A study of Gossypium hirsutum with 17 samples.

Results

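The transcripts described here were 49 of the 24029 probe sets of the Affymetrix Cotton Genome Array whose signal was raised in cotton seedlings on mannitol and on alkaline medium, but not in seedlings on abscisic acid (ABA). They were chosen by their own values. A probe set was taken when its mean log2 signal was at least 1.5 above the control mean in mannitol and in pH, when the lowest of the 5 mannitol and pH arrays exceeded the highest of the 6 ABA and control arrays, when the means in mannitol and pH were at least 6, and when the ABA mean lay within 0.5 of the control mean. The mannitol, pH, ABA and control values of the members are therefore a description and carry no test, while the cold and NaCl arrays were not read by the choice.

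Whole seedlings of upland cotton (Gossypium hirsutum) were harvested 14 days after germination from half-strength MS medium. The tested conditions were 200 mM mannitol (3 arrays), medium of pH 11 (2 arrays), cold as 8 days at 25°C and then 2 days at 4°C (3 arrays), 200 mM NaCl (3 arrays) and 1 μM ABA (3 arrays), each set against seedlings under normal growth (control, 3 arrays). Mannitol, NaCl, ABA and pH lasted 10 days, and the mannitol, cold, NaCl and ABA media were at pH 5.8. All 17 arrays thus measured a mixture of organs of 1 species at 1 age, so that fewer cells of a type and less RNA per cell cannot be told apart.

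Mannitol withdraws water from plant cells without being a salt, and alkaline medium disturbs the proton gradient and the uptake of iron and phosphate at the root. ABA is the hormone that accumulates when water is short, and it acts through receptors that block protein phosphatases and so release SnRK2 kinases. Alongside it, plants use other routes, and some of these need little or no ABA. The other routes include the CBF/DREB factors, which bind the dehydration-responsive element, and the ethylene response factors (ERFs). Mitogen-activated protein (MAP) kinase cascades and calcium signals are used with ABA as well as without it.

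Several facts of the arrays touch the results. The deposited signals lay on different scales, with a trimmed mean of 500 in all mannitol, pH and ABA arrays, 107 to 127 in cold, 18.5 to 140 in NaCl and 118 to 120 in control, and all values below are log2 signals after quantile normalization of the 17 arrays. The NaCl arrays did not lie close together, and the one labelled replicate 2 stood apart. Its closest array over the other probe sets was cold replicate 2 (r 0.941), and it lay nearer to the cold mean than to the mean of the other NaCl arrays for 36 of the 49 members, against 68.1% of all probe sets. The dimmest array, at 18.5, was NaCl replicate 1. Its closest array was NaCl replicate 3 (r 0.856), whereas that of NaCl replicate 3 was control replicate 3 (r 0.924). NaCl values are therefore given with and without replicate 2, and what is left without it rests on 2 arrays. RNA quality can be read from the log2 ratio of the actin 3′ to 5′ control probes, which was 2.85 to 3.97 in mannitol, 4.45 to 4.46 in pH, 2.69 to 7.22 in cold, 2.70 to 4.79 in NaCl, 4.46 to 5.31 in ABA and 2.78 to 3.05 in control. Its part in the results was not tested. Tissue markers could hardly be checked by name, since the names at hand held 1 probe set of the green tissue list, 2 of the root list and none of the seed list, and no member was in them.

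The steps of the choice show how rare the pattern was. A rise of at least 1.5 was found for 2524 probe sets in mannitol and for 2787 in pH, and 1933 rose by this amount in both. With the limit on mean signal 1099 were left, and 423 of these had all mannitol and pH arrays above all ABA and control arrays. Among these 423, the ABA mean was at least 1 above control for 302, more than 0.5 above for 369, within 0.5 for the 49 members and more than 0.5 below for 5. A separate list of 787 probe sets that rose by at least 1.5 in mannitol, pH and ABA alike serves below for comparison.

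**Figure D1:**
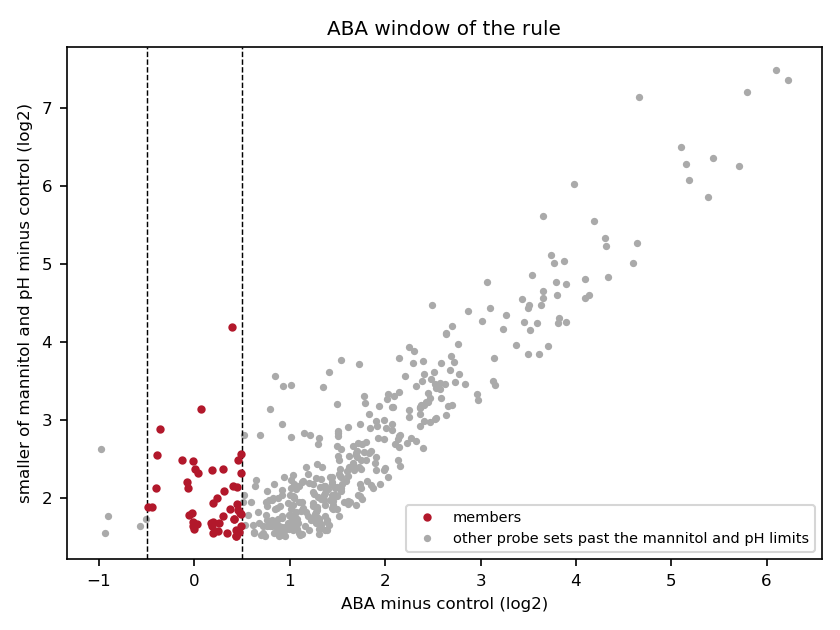
Change in ABA (x axis, log2 against control) and the smaller of the changes in mannitol and pH (y axis, log2 against control) for the 423 probe sets that passed every limit but the one on ABA. The 49 members (red) lie between the dashed lines at -0.5 and 0.5, and most of the other probe sets (grey) lie to the right of them.

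Over the 49 members, the median change was 2.00 in mannitol (1.51 to 4.31) and 2.13 in pH (1.51 to 4.19), against medians of -0.05 and -0.03 over all probe sets. The median in ABA was 0.24, with 36 of the 49 above control. In the limma fit described below, at a fold of at least 2 and an adjusted p of at most 0.05, 38 of the members passed as higher in mannitol (11.9% of all probe sets did), 35 as higher in pH (11.7% of all) and 0 as higher in ABA (11.8% of all). These contrasts made the choice, so nothing is read from the counts. Mannitol, pH and ABA arrays shared 1 deposited scale, and between them the members lay 1.79 higher in mannitol than in ABA (median, 1.07 to 3.92) and 2.03 higher in pH than in ABA (1.07 to 3.80).

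Only 11 of the 49 members had a name. The array annotation named 4, and 7 more were described in the study's tables of transcription factors, the only tables that could be read for mannitol and pH. For this reason the named members are mostly regulators, and the share of regulators among all members is not known. In the words of those tables, several are only weakly or moderately similar to the Arabidopsis or rice protein they are named after.

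Among the AP2/ERF family of transcription factors, a plant family of DNA-binding proteins that holds the CBF/DREB and ERF factors, 3 probe sets were members. CBF17 (LOC107913841), whose relatives in Arabidopsis switch on cold and drought genes through the dehydration-responsive element, was read by GhiAffx.33925.1.S1_at. Its log2 signal was 7.60, 7.78 and 7.24 in mannitol, 7.04 and 7.87 in pH, 5.78, 5.46 and 6.46 in cold, 5.26, 5.29 and 4.5 in NaCl, 6.23, 5.77 and 5.27 in ABA and 5.67, 5.47 and 4.78 in control. The mannitol and pH arrays stood alone at the top, 4.70-fold and 4.42-fold above control, and the cold and ABA arrays overlapped with control. Its change in cold was 0.59 ± 0.37 (SE), with an adjusted p of 0.314 in the limma fit. A second probe set given to the same gene, Ghi.4480.1.S1_s_at, had a mean log2 signal of 12.76 in mannitol and 12.62 in control and differed from control by only 0.14 in mannitol and 0.11 in pH, so that the probe sets of CBF17 disagreed.

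The ERF105 probe set Ghi.9175.1.S1_at, named after an Arabidopsis ERF that takes part in cold acclimation, had log2 signals of 10.03, 9.12 and 9.85 in mannitol, 9.91 and 10.44 in pH, 9.58, 10.01 and 10.63 in cold, 7.71, 9.78 and 7.44 in NaCl, 7.62, 8.02 and 7.84 in ABA and 7.67, 8.01 and 7.98 in control. Mannitol, pH and cold arrays were all above 9, while all ABA and control arrays and NaCl replicates 1 and 3 were at 8.02 or below. In cold it was 2.18 ± 0.50 (SE) above control (4.54-fold, adjusted p = 0.0158). The change in ABA was -0.06.

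ERF5 was the name in the transcription factor tables for Ghi.9880.2.A1_x_at, although the array annotation gives the 2 other probe sets of its design cluster to ERF9 (LOC107932376). The signals were 9.09, 7.59 and 8.57 in mannitol, 8.50 and 9.45 in pH, 7.27, 7.30 and 8.28 in cold, 3.5, 7.28 and 6.25 in NaCl, 6.62, 7.27 and 6.16 in ABA and 6.56, 6.56 and 6.35 in control. Mannitol replicate 2 lay only 0.32 above the highest ABA array, which made it a borderline member. The change in cold, 1.13 ± 0.74 (SE), was not larger than its error allowed (adjusted p = 0.34). The other probe sets of the cluster went the same way, Ghi.9880.1.A1_s_at by 1.51 in mannitol, 2.16 in pH and -0.03 in ABA, and Ghi.9880.2.S1_at by 0.79, 1.48 and -0.03.

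WRKY factors bind the W-box and are best known from plant defence. The member named after WRKY70, a regulator at the junction of salicylate and jasmonate signalling in Arabidopsis, was Ghi.6408.1.A1_s_at. Its signals were 10.82, 10.75 and 10.72 in mannitol, 11.18 and 11.40 in pH, 10.69, 11.30 and 11.66 in cold, 8.54, 11.43 and 8.49 in NaCl, 9.07, 9.12 and 8.73 in ABA and 8.72, 7.98 and 9.30 in control. It was 4.26-fold above control in mannitol and 6.15-fold in pH, and in cold it rose by 2.55 ± 0.62 (SE, 5.85-fold, adjusted p = 0.0193). Of the 3 other probe sets of this cluster, Ghi.6408.2.A1_s_at changed by 1.15 in mannitol, 1.69 in pH and 0.06 in ABA, and the other two had mean signals below 2 in mannitol and in control.

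MYB factors form one of the largest families of plant transcription factors. The putative MYB factor Ghi.10620.1.S1_at had signals of 8.21, 7.56 and 7.75 in mannitol, 7.73 and 8.52 in pH, 8.94, 9.07 and 9.82 in cold, 4.75, 9.04 and 6.65 in NaCl, 7.24, 5.31 and 6.45 in ABA and 5.98, 6.63 and 5.83 in control. Every cold array was above every mannitol and pH array, and the rise in cold was 3.13 ± 0.81 (SE, 8.76-fold, adjusted p = 0.0242). The lowest mannitol array exceeded the highest ABA array by 0.31, the smallest such gap of any member. The myb-like protein Ghi.9587.1.S1_s_at lay at the lower limit of the mannitol change, with 1.51 in mannitol and 1.58 in pH, and its change of 1.48 ± 0.50 (SE) in cold did not pass the test (adjusted p = 0.067).

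The CCCH zinc finger proteins are a group of RNA- and DNA-binding proteins. The member described as zinc finger CCCH domain-containing protein 29, Ghi.9149.3.A1_at, had signals of 8.29, 6.97 and 8.18 in mannitol, 7.39 and 7.70 in pH, 8.29, 8.86 and 9.63 in cold, 5.56, 8.63 and 4.48 in NaCl, 6.0, 5.70 and 4.73 in ABA and 5.48, 4.89 and 5.14 in control. It rose by 3.75 ± 0.80 (SE, 13.5-fold, adjusted p = 0.0121) in cold, more than by mannitol (6.26-fold) or pH (5.17-fold). Ghi.9149.4.A1_s_at of the same cluster changed by 2.03 in mannitol, 1.72 in pH and 2.39 in cold, and missed membership because its ABA change was -0.51.

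CCR4-associated factor 1 is the deadenylase of the CCR4-NOT complex, which shortens the poly(A) tails of mRNA. Ghi.8610.1.S1_s_at, described as the putative CCR4-associated factor 1-11, had signals of 10.90, 10.13 and 10.49 in mannitol, 10.62 and 11.12 in pH, 7.38, 6.97 and 7.11 in cold, 7.33, 6.70 and 8.62 in NaCl, 7.52, 8.33 and 8.19 in ABA and 8.38, 7.27 and 8.47 in control. Mannitol and pH arrays were all above 10 and no other array reached 9. The folds were 5.53 in mannitol and 7.11 in pH, while cold differed from control by -0.89 ± 0.46 (SE, adjusted p = 0.216). Ghi.8610.3.A1_a_at of the same cluster was a member too, with 1.66 in mannitol, 2.40 in pH, -0.99 ± 0.64 (SE) in cold and 0.03 in ABA. The other probe sets of the cluster disagreed. Ghi.8610.2.S1_at (mean signal 7.16 in control) changed by 0.83 in mannitol, 1.37 in pH and -1.1 in ABA. In cold it fell by 1.43 on the log2 scale (SE 0.393, adjusted p = 0.031, limma). Ghi.8610.3.S1_at, with a mean signal of only 1.44 in control, changed by 1.14 in mannitol, 1.44 in pH and 1.26 in ABA.

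MPK3 (LOC107959059) is a MAP kinase that in Arabidopsis is activated by many stresses and by pathogen signals. The member Ghi.7954.2.S1_at had signals of 8.62, 8.36 and 8.42 in mannitol, 8.51 and 8.47 in pH, 7.96, 8.73 and 7.99 in cold, 6.79, 8.32 and 6.07 in NaCl, 7.99, 7.22 and 6.27 in ABA and 6.61, 6.94 and 6.71 in control. The ABA arrays were spread widely, and ABA replicate 1 lay within the range of the cold arrays. The change in cold was 1.48 ± 0.50 (SE, adjusted p = 0.07), and 1.48 ± 0.38 (adjusted p = 0.0161) in the fit without NaCl replicate 2.

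The annotation gives 5 more probe sets to this gene, and 4 of them did not share the ABA pattern of the member. Ghi.7954.1.S1_s_at (mean signal 11.52 in mannitol and 8.23 in control) changed by 3.29 in mannitol, 3.01 in pH and 1.83 in ABA (adjusted p in ABA 0.0151). Ghi.6088.2.A1_s_at changed by 2.14, 2.21 and 1.95 (adjusted p in ABA 0.00354), Ghi.6088.2.S1_at by 1.37, 1.94 and 1.89 (0.00468) and Ghi.6088.1.S1_s_at by 1.98, 2.05 and 2.01 (0.0208). These 4 thus rose in ABA as well, whereas the fifth, Ghi.7954.3.A1_at, stood at 1.4, 0.93 and -0.04, so that the probe sets of MPK3 disagreed on ABA. A probe set of another gene annotated as MPK3 and MPK6 (LOC107903096, Ghi.757.1.S1_x_at) changed by -1.25 in mannitol, -1.05 in pH and -1.19 in ABA.

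**Figure D2:**
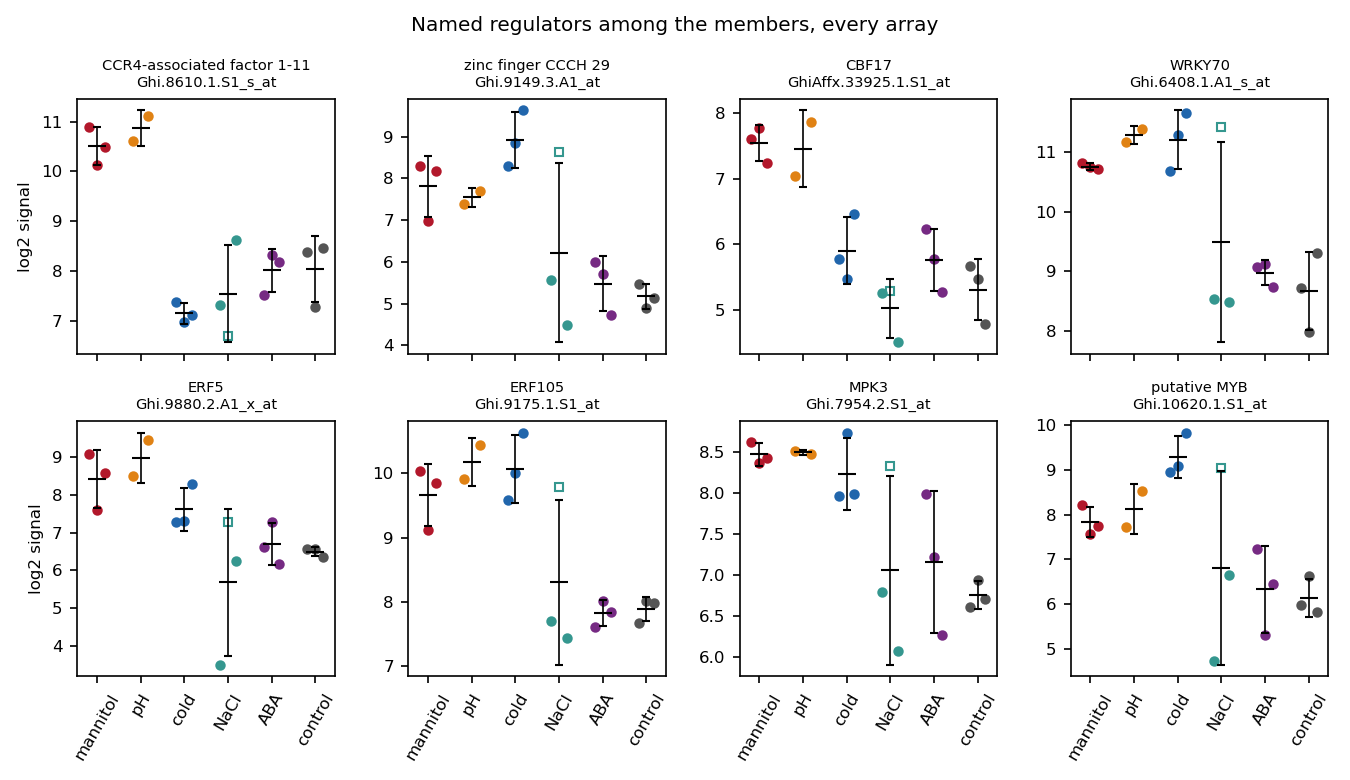
Log2 signal (y axis, quantile normalized) of 8 named members on every array of the 6 conditions (x axis). Points are arrays, the open square is NaCl replicate 2, and bars are the mean ± SD. Mannitol and pH arrays lie above all ABA and control arrays in each panel, as the choice required, and the cold arrays join them for the CCCH zinc finger protein, WRKY70, ERF105 and the MYB factor but not for CCR4-associated factor 1-11.

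The remaining named members carry no role that could be given here. Ghi.6461.1.A1_at (LOC107918357, GEPH) had signals of 11.09, 11.22 and 11.15 in mannitol, 10.82 and 11.04 in pH, 10.23, 10.15 and 10.72 in cold, 9.51, 10.15 and 9.26 in NaCl, 9.49, 9.71 and 9.55 in ABA and 9.66, 9.18 and 9.33 in control. Its cold arrays did not overlap with control, but the change of 0.98 ± 0.25 (SE, adjusted p = 0.023) stayed below a fold of 2. Ghi.4217.1.S1_s_at (LOC107889069) changed by 1.55 in mannitol and 1.79 in pH, and by 0.18 ± 0.26 (SE, adjusted p = 0.678) in cold.

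The other 38 members had no name, and they included the largest changes. Ghi.1127.2.A1_x_at had signals of 9.40, 8.26 and 8.75 in mannitol, 8.45 and 8.92 in pH, 9.10, 9.56 and 10.90 in cold, 4.11, 9.54 and 6.06 in NaCl, 4.38, 3.64 and 6.63 in ABA and 4.51, 5.28 and 3.70 in control. It was 19.8-fold above control in mannitol, 18.2-fold in pH and 40.9-fold in cold (5.35 ± 1.10, SE, adjusted p = 0.0106). ABA replicate 3 lay above every control array, and ABA replicates 1 and 2 lay at or below the control mean. The cluster Ghi.1127 gave 2 more members, Ghi.1127.4.S1_x_at with 3.23 in mannitol, 2.88 in pH and 4.41 ± 0.91 in cold, and Ghi.1127.4.A1_at with 1.72, 1.60 and 3.62 ± 0.78. Its last probe set, Ghi.1127.1.S1_at, had a mean signal of only 0.28 in control and changed by 5.23 in mannitol, 4.88 in pH and 3.77 in ABA (adjusted p in ABA 0.00644). Gra.623.2.S1_s_at, designed on Gossypium raimondii sequence, changed by 2.89, 2.55 and 3.99 ± 0.99 (SE), and like the Ghi.1127 members it was highest within its group on ABA replicate 3 and control replicate 2.

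Ghi.243.1.A1_s_at was raised in mannitol and pH and in no other condition. Its signals were 7.53, 7.35 and 7.46 in mannitol, 6.95 and 6.91 in pH, 2.87, 2.79 and 4.55 in cold, 1.66, 3.93 and 3.92 in NaCl, 3.39, 4.51 and 3.70 in ABA and 3.76, 3.62 and 4.00 in control. The lowest mannitol or pH array exceeded the highest array of every other condition by more than 2, at 12.5-fold in mannitol and 8.79-fold in pH. The second probe set of the cluster, Ghi.243.1.S1_at, changed by 2.25 in mannitol, 2.69 in pH, -0.20 in cold, 0.31 in NaCl and -0.21 in ABA, at a mean signal of 5.56 in mannitol. Ghi.3558.1.A1_s_at was similar, with 7.21, 7.22 and 7.15 in mannitol, 7.41 and 7.24 in pH, 4.30, 4.04 and 5.66 in cold, 4.95, 5.23 and 5.13 in NaCl, 4.86, 5.64 and 4.84 in ABA and 5.27, 3.88 and 4.75 in control. Its ABA change was 0.49, at the edge of the window.

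**Figure D3:**
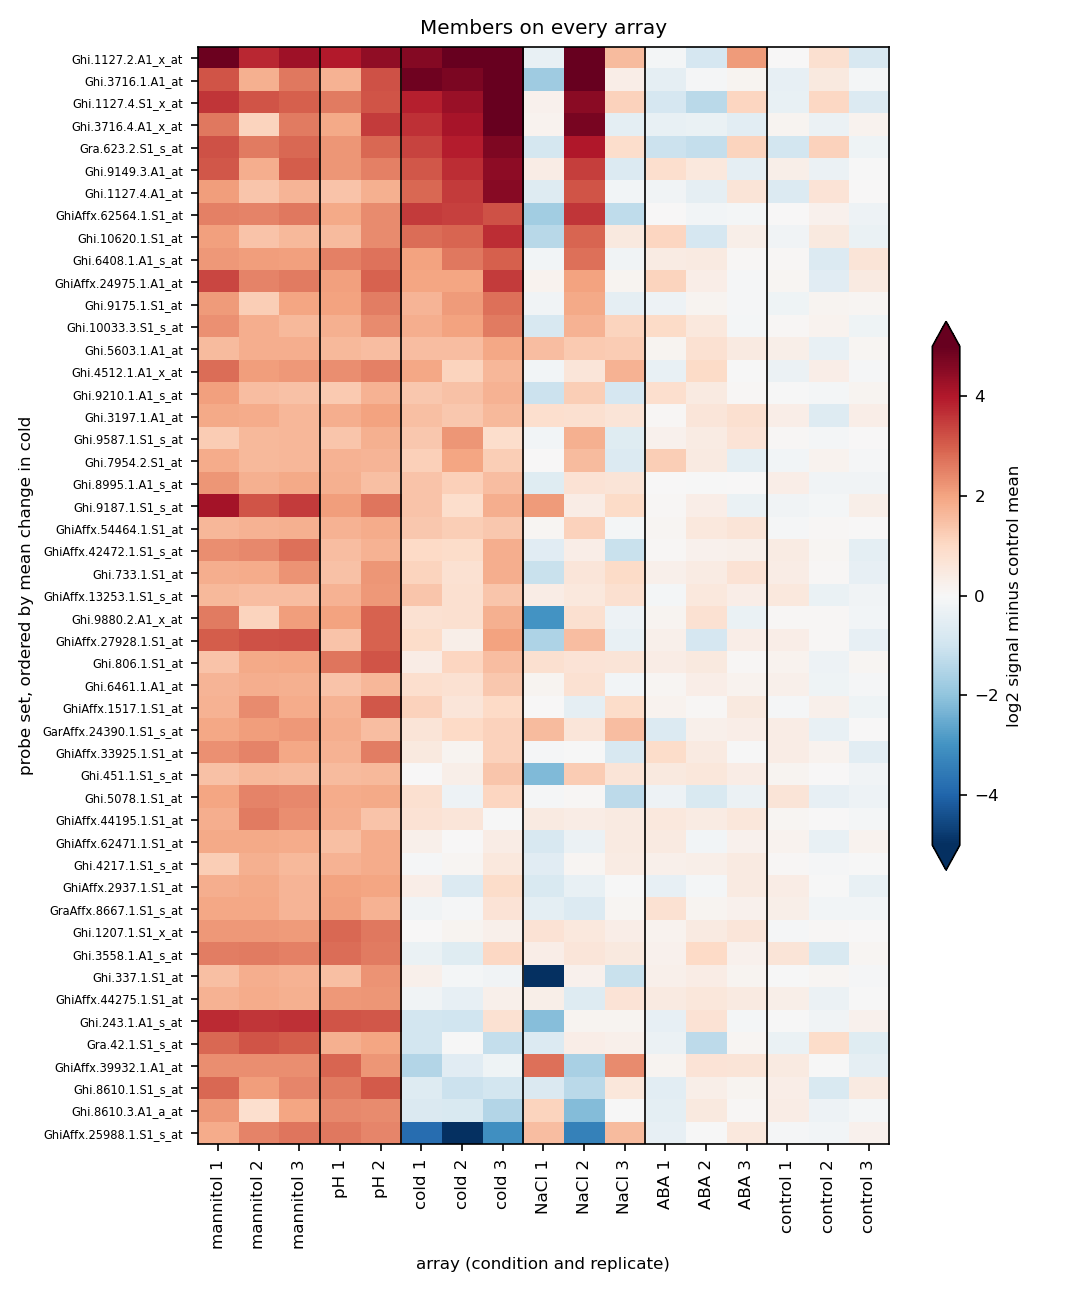
Log2 signal minus the control mean (colour, with values beyond the ends of the bar in its end colours) of the 49 members (rows, ordered by their mean change in cold) on the 17 arrays (columns). The upper rows are red in cold and in NaCl replicate 2 as well as in mannitol and pH, and the lowest row, GhiAffx.25988.1.S1_s_at, is blue in cold and in NaCl replicate 2.

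Mannitol and pH raised the members to a like degree on balance. The median of pH minus mannitol was 0.03, with 26 of the 49 higher in pH, and the range was -1.24 to 1.15. In 8 members every pH array lay above every mannitol array, and in 11 every mannitol array lay above every pH array. The share of all probe sets with such a separation was not counted, so nothing is read from these numbers. The extremes, singled out after their values were seen, were Ghi.806.1.S1_at, with 9.37 and 9.84 in pH against 8.13, 8.58 and 8.65 in mannitol, and Ghi.9187.1.S1_s_at, with 7.01 and 7.60 in pH against 9.09, 8.09 and 8.45 in mannitol. With 2 pH arrays and both conditions read by the choice, these differences stay a description.

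The genes and design clusters of the members held 31 other probe sets, of which 9 changed by at least 1.5 in both mannitol and pH. Of these 9, only 3 lay within 0.5 of control in ABA, and 5 were at least 1 above it. All 31 had missed at least 1 limit of the choice, since probe sets of these clusters that passed count as members, and their values are given as a description of those left out. Probe sets of a cluster share a target or part of its sequence and are not replicates of each other, and 18 of the members were of the _s_at and 6 of the _x_at type, whose probes can be shared by related transcripts (38.7% and 6.48% of all probe sets). The 49 members came from 45 clusters.

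**Figure D4:**
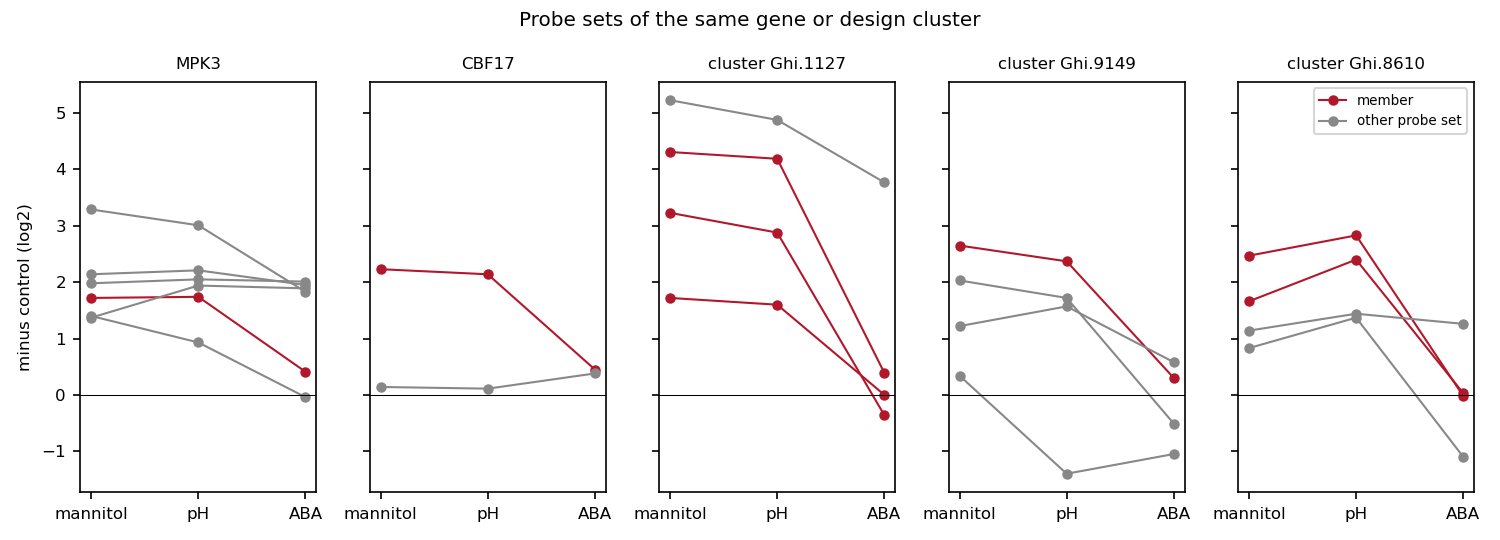
Change against control (y axis, log2) in mannitol, pH and ABA (x axis) for the probe sets of MPK3, CBF17 and 3 design clusters. Members (red) drop to near 0 in ABA. Other probe sets (grey) that stay above 1 there are 4 of MPK3, 1 of cluster Ghi.1127 and 1 of cluster Ghi.8610. Ghi.8610.2.S1_at (-1.1) and Ghi.9149.5.A1_at (-1.05) lie below control in ABA, and the other probe set of CBF17 is near 0 throughout.

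Cold was not read by the choice, although the control arrays of this contrast were. In cold, 23 of the 49 members rose, against 5.66% of all probe sets, and 1 fell, against 5.48% of all. The median change in cold was 1.19, against 0.00 over all probe sets, and 41 of the 49 lay above 0. In 30 members all cold arrays lay above all control arrays, a pattern of 18.9% of all probe sets. The 787 probe sets raised alike in mannitol, pH and ABA had a median of 0.91 in cold, and 31.9% of them rose there, against 46.9% of the members. A test of this difference was not made, since both lists were chosen on control arrays.

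The 23 that rose had a median change of 2.18 in cold (1.01 to 5.35), and for 10 members the cold mean exceeded the means of mannitol and of pH. How many of all probe sets had such a cold mean was not counted. The largest changes were those of Ghi.1127.2.A1_x_at and Ghi.3716.1.A1_at. Ghi.3716.1.A1_at had signals of 9.42, 8.07 and 8.93 in mannitol, 8.03 and 9.47 in pH, 11.13, 10.99 and 11.91 in cold, 4.5, 11.59 and 6.62 in NaCl, 5.83, 6.21 and 6.41 in ABA and 5.87, 6.77 and 6.19 in control, and was 33.6-fold higher in cold than in control (5.07 ± 1.23, SE, adjusted p = 0.0192). Ghi.3716.4.A1_x_at of the same cluster rose by 4.24 ± 1.02 (SE, adjusted p = 0.0186) and had ABA and control arrays between 5.93 and 6.63. GhiAffx.24975.1.A1_at rose by 2.49 ± 0.57 (SE, adjusted p = 0.0152). Of the 11 named members, 4 were among those that rose, namely the CCCH zinc finger protein, the MYB factor, WRKY70 and ERF105. The 25 members that passed in neither direction had cold changes of -0.99 to 1.48, with a median of 0.21.

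The member that fell in cold was GhiAffx.25988.1.S1_s_at, which has no name. Its signals were 9.75, 10.39 and 10.57 in mannitol, 10.54 and 10.34 in pH, 4.10, 2.72 and 4.85 in cold, 9.44, 4.52 and 9.49 in NaCl, 7.51, 7.90 and 8.45 in ABA and 7.84, 7.76 and 8.14 in control. All cold arrays and NaCl replicate 2 lay below 5, whereas NaCl replicates 1 and 3 lay above every control array. The change in cold was -4.02 ± 1.00 (SE, adjusted p = 0.0215).

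The count in cold depended on the arrays in the fit. It was 8 without cold replicate 3 (2.78% of all probe sets) and 12, 11 and 10 without control replicates 1, 2 and 3 (3.54%, 3.31% and 3.31% of all), and it was 0 when the fit held no more than the cold, NaCl and control arrays (0.0208% of all probe sets) but 17 when this smaller fit also left out NaCl replicate 2 (3.62% of all). The fall of GhiAffx.25988.1.S1_s_at lost its call without cold replicate 2 or any 1 control array (adjusted p 0.0564 to 0.0652).

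In NaCl, 1 member rose (0.466% of all probe sets) and 0 fell (0.229% of all, limma), with 4 and 1 at an unadjusted p of at most 0.05 (4.71% and 3.72% of all) and 0 and 0 by SAM. The median change was 0.35, against -0.03 over all probe sets. The arrays did not act as a group, since the median was -0.15 on NaCl replicate 1, 0.70 on replicate 2 and 0.35 on replicate 3, and -0.08 over the means of replicates 1 and 3. The member that rose was Ghi.5603.1.A1_at, with no name, whose signals were 9.74, 9.99 and 9.99 in mannitol, 9.81 and 9.71 in pH, 9.73, 9.71 and 10.10 in cold, 9.72, 9.48 and 9.44 in NaCl, 8.29, 8.92 and 8.61 in ABA and 8.46, 7.78 and 8.27 in control. All NaCl arrays of this member lay above all its control arrays, at 1.38 ± 0.23 (SE, adjusted p = 0.0238) in NaCl and 1.68 ± 0.23 (adjusted p = 0.00248) in cold. The NaCl call was lost without NaCl replicate 1 (adjusted p = 0.0593), control replicate 2 (0.0719) or control replicate 3 (0.0581).

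Without NaCl replicate 2, 3 members rose in NaCl (2.32% of all probe sets) and 2 fell (1.89% of all). Besides Ghi.5603.1.A1_at, GhiAffx.39932.1.A1_at rose by 2.56 ± 0.38 (SE, adjusted p = 0.00516) and GarAffx.24390.1.S1_s_at by 1.57 ± 0.32 (adjusted p = 0.0202). GhiAffx.39932.1.A1_at had 8.67 and 8.28 on NaCl replicates 1 and 3 and 4.31 on replicate 2, against 6.38, 5.89 and 5.47 in control, so that replicates 1 and 3 reached its level in mannitol (8.22, 8.25 and 8.25). GhiAffx.62564.1.S1_at fell by 1.5 on the log2 scale (SE 0.222, adjusted p = 0.00514), with 6.86 and 7.30 on NaCl replicates 1 and 3 and 12.15 on replicate 2, against 8.59, 8.81 and 8.34 in control. Ghi.337.1.S1_at fell by 3.34 on the log2 scale (SE 0.853, adjusted p = 0.0468), with -0.39 on the dim NaCl replicate 1 and 4.00 on replicate 3, against 5.12, 5.21 and 5.06 in control.

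Cold set against NaCl is the 1 contrast in which no array had been read by the choice. With all arrays, 0 members were higher in cold than in NaCl (0.162% of all probe sets) and 0 lower (0.146% of all) in limma, and 0 and 0 by SAM, with 21 and 2 at an unadjusted p of at most 0.05 (6.65% and 6.19% of all). The median of cold minus NaCl was 0.88, and 40 of the 49 lay above 0. Without NaCl replicate 2, 22 were higher in cold (8.98% of all probe sets) and 3 lower (8.18% of all), and the median against replicates 1 and 3 was 1.22, against -0.02 over all probe sets. Whether this array carries the right label was not tested. It was singled out for lying near the cold arrays, so leaving it out widens cold against NaCl by itself. The counts and p-values without it carry that choice, rest on 2 NaCl arrays and are a description.

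The members higher in cold than in NaCl without that array included 7 of the 11 named ones. The CCCH zinc finger protein differed by 3.91 ± 0.53 (SE, adjusted p = 0.000439), the MYB factor by 3.58 ± 0.61 (0.00182), ERF5 by 2.75 ± 0.70 (0.0158), WRKY70 by 2.70 ± 0.35 (0.000365), ERF105 by 2.49 ± 0.34 (0.000465), the myb-like protein by 1.85 ± 0.34 (0.00272) and MPK3 by 1.80 ± 0.42 (0.0102). For ERF5, the dim NaCl replicate 1 stood at 3.5 and replicate 3 at 6.25, beside 6.56, 6.56 and 6.35 in control. CBF17 differed by 1.03 ± 0.42 and did not pass (adjusted p = 0.104). The largest difference was that of Ghi.3716.1.A1_at, 5.79 ± 0.62 (SE, adjusted p = 0.000121). The 3 members lower in cold than in NaCl were GhiAffx.25988.1.S1_s_at at -5.59 ± 0.50 (SE, adjusted p = 4.11e-05), GhiAffx.39932.1.A1_at at -3.32 ± 0.38 (0.000168) and Ghi.8610.3.A1_a_at of the CCR4-associated factor cluster at -1.54 ± 0.46 (0.0327).

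**Figure D5:**
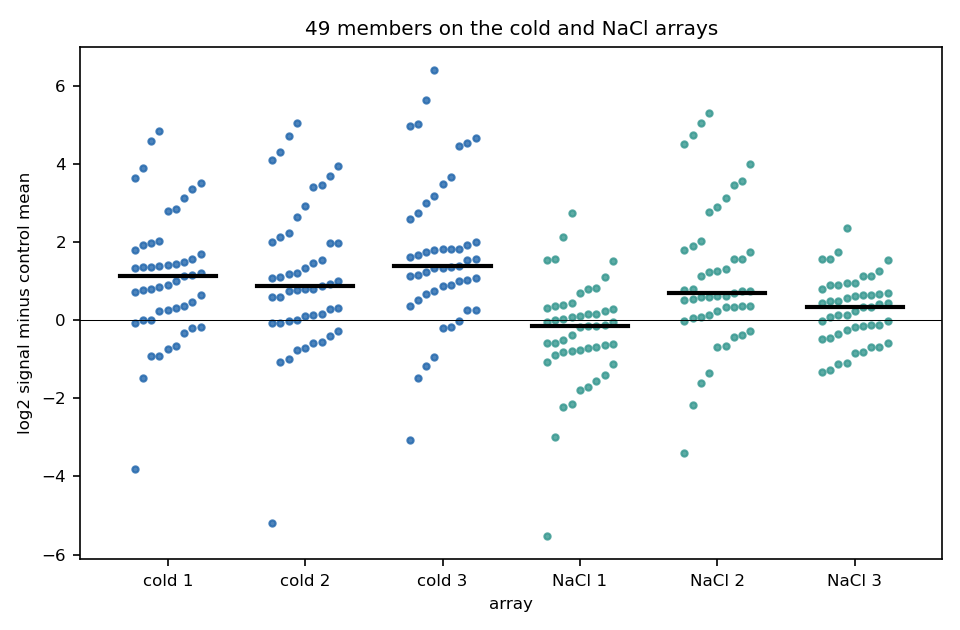
Log2 signal minus the control mean (y axis) of the 49 members on each cold and NaCl array (x axis). Points are members and the black lines are medians, which lie above 0 on the cold arrays and on NaCl replicates 2 (0.70) and 3 (0.35) and below 0 on NaCl replicate 1 (-0.15).

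The families of the named members were followed in all probe sets that the annotation or the study's tables name. The study's tables, of transcription factors and of changed transcripts, were themselves drawn up from these arrays. The counts below therefore give no independent evidence of direction. Of all probe sets, 11.9% rose and 10.9% fell in mannitol, 11.7% and 10.4% in pH, 5.66% and 5.48% in cold, and 11.8% and 10.3% in ABA. Of 41 AP2/ERF and DREB probe sets, the numbers that rose were 14 for mannitol, 11 for pH, 9 for cold and 3 for ABA, 1 fell in cold and 2 in ABA, and 5 rose in mannitol and pH without passing in ABA. Besides the members, Gra.2948.4.A1_s_at (a RAP2-type ERF) changed by 1.78 in mannitol, 1.31 in pH and 2.23 in ABA, and CBF15 (LOC107957738, Ghi.3215.1.S1_s_at) by 3.07, 2.19 and 2.37. Both rose in ABA too, as only 3 of the 41 did. Ghi.9124.3.A1_at, another RAP2-type ERF, changed by 1.69, 0.27 and 0.86. Other probe sets named ERF105 were Gra.126.1.A1_s_at (1.22, 1.28 and 0.09) and Ghi.3679.2.A1_s_at (1.07, 1.62 and 0.6). Ghi.8749.1.S1_at, also named ERF5, changed by 1.27, 1.79 and -0.53. CBF15 and CBF17 are of the same family, and their values in ABA were 2.37 and 0.45.

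Of 33 WRKY probe sets, the numbers that rose were 18 for mannitol, 19 for pH, 12 for cold and 12 for ABA, and none fell in any of these. WRKY4 (Ghi.3139.1.A1_at) changed by 3.22 in mannitol, 3.16 in pH and 2.07 in ABA, but its other probe set, Ghi.3139.1.S1_at, by 1.33, 1.46 and 0.50 (adjusted p in ABA 0.225). WRKY40 (Ghi.10061.1.S1_s_at) changed by 2.29, 2.47 and 1.03, and the WRKY70 member by 0.31 in ABA. Of 28 MYB probe sets, 5 rose and 2 fell in mannitol, 4 rose and 3 fell in pH, 3 rose and 2 fell in cold, and 3 rose and 2 fell in ABA. Of 27 zinc finger probe sets, 10 rose with mannitol, 6 with pH, 11 with cold and 5 with ABA, while 1 fell with mannitol and 2 with pH.

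Of 30 probe sets of calcium signalling and MAP kinases, 19 rose with mannitol, 18 with pH, 6 with cold and 19 with ABA, and 13 rose in mannitol, pH and ABA. Falls in this list numbered 1 each with mannitol, pH and ABA and 2 with cold. The array annotation placed 11 of the 30 in this list, and the study's tables placed the others. A calcium-dependent protein kinase, Ghi.9336.3.S1_at, changed by 3.76 in mannitol, 4.29 in pH and 2.40 in ABA, and the calcium sensor CBL1 (LOC107912199, Ghi.9163.2.S1_at) by 2.39, 2.27 and 1.97. Of 36 ethylene probe sets, most of them ERFs counted above, 11 rose with mannitol, 9 with pH, 8 with cold and 2 with ABA, while 1 fell with cold and 2 with ABA. The 13 probe sets of the ABA pathway, among them protein phosphatases 2C, held no member, and 9 of them rose with mannitol, 7 with pH, 3 with cold and 10 with ABA, while 0 fell with any of these. The study's tables placed all 13 in this list, and the array annotation placed 0. Apart from transcription factors, those tables could not be read for mannitol and pH. Neither the lack of members nor the counts are therefore read as a result.

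The values at the limits were close to each other. Just inside the limit of 1.5 lay Ghi.9587.1.S1_s_at (1.51) and Ghi.4217.1.S1_s_at (1.55) for mannitol, and Ghi.9210.1.A1_s_at (1.51) and Ghi.6461.1.A1_at (1.54) for pH. Just outside lay Ghi.2840.3.S1_s_at (1.48) and Ghi.3196.2.S1_at (1.44) for mannitol, and Ghi.5297.1.A1_s_at and Ghi.695.1.S1_at (1.48 each) for pH. For the ABA window, GhiAffx.39932.1.A1_at (0.49) and Gra.42.1.S1_s_at (-0.49) were inside and Ghi.9149.4.A1_s_at (-0.51) and GhiAffx.24792.1.S1_at (0.51) outside. For the mean signal in mannitol, Ghi.451.1.S1_s_at (6.23) and Ghi.4512.1.A1_x_at (6.36) were inside and GhiAffx.15635.1.S1_at (5.66) and Ghi.8742.1.A1_at (5.62) outside. For that in pH, Ghi.451.1.S1_s_at (6.26) and Ghi.1127.4.A1_at (6.32) were inside and Gra.42.1.A1_s_at (5.72) and GhiAffx.52646.1.S1_at (5.46) outside. For the gap between the lowest mannitol or pH array and the highest ABA or control array, Ghi.10620.1.S1_at (0.31) and Ghi.9880.2.A1_x_at (0.32) were inside and GhiAffx.6766.1.S1_at (-0.25) and GhiAffx.24168.1.S1_at (-0.37) outside. The limit on ABA decided most cases, with 374 probe sets kept out by it alone, against 45 by mannitol and 12 by pH.

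Membership moved with the scaling of the arrays. When the same limits were applied to arrays centred on their medians, 36 probe sets passed, all of them members, and with arrays scaled to a common trimmed mean 44 passed, 31 of them members. Across these and an offset of 32 added before the log, 14 members passed each time, among them Ghi.243.1.A1_s_at, GhiAffx.25988.1.S1_s_at and the probe sets of WRKY70, ERF5, the CCCH zinc finger protein and CCR4-associated factor 1-11. Another 7 members passed under none of them, among them Ghi.6461.1.A1_at (GEPH), Ghi.4217.1.S1_s_at and the myb-like Ghi.9587.1.S1_s_at. The MPK3 member passed only under median centring. ERF105 failed under median centring, CBF17 under trimmed-mean scaling and the MYB factor with the offset. On the deposited scales none of the 49 passed, since the whole ABA, mannitol and pH arrays then lie 2.09 to 2.19 above control at the median.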

How the data were processed

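Whole seedlings were measured on 17 Affymetrix arrays. The deposited values are intensities, the linear signals of MAS5 computed by the authors; the version of MAS5 is not given in the sources used here. The labels name biotin and also Cy3 and Cy5 as labels, and they call each array a biological replicate, whereas the study's methods state that RNA of the replicates was pooled, so p-values describe the spread between arrays only. After removal of 103 Affymetrix control probe sets from the 24132 on the array, log2 signals were quantile normalized across the arrays, with no filter on low signals, and the number of arrays limits the precision. A single limma fit (lmFit and eBayes, version 3.58.1, R 4.3.3) took in all arrays with 1 coefficient per condition, and p-values were adjusted by Benjamini-Hochberg over the 24029 probe sets. A call needs a fold of at least 2 and an adjusted p of at most 0.05. Errors named SE are moderated by eBayes.

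The members, the name lists and the tests were chosen with earlier results of these data known. Named were all members with a name, the 6 unnamed members with the largest changes, up to 6 members per direction that passed in cold or NaCl, the probe sets at each limit, and up to 4 probe sets of each list that held a member. Other probe sets of the members' clusters, CBF15 and further probe sets named ERF105 or ERF5 were added after their values were seen. The replicate numbers were not taken to pair arrays, since deviations from the group means on arrays of the same number and other conditions had a mean r of 0.00792 (-0.183 to 0.196).

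Alternatives were median centring, trimmed-mean scaling (2% at each end), the deposited scales, an offset of 32, leaving out each array or the lowest 25% of signals, fits to fewer groups, a variance trend, a replicate block, unadjusted p, and the SAM test of the methods, written anew here (all permutations, q of at most 5%). The fits were tested on simulated data. Names came from the array annotation (697 probe sets with 1 gene) and the study's tables. Plots used Python 3.11.15 and matplotlib 3.10.9. No probe sequence or position was used here.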

Additional observations from a re-analysis of the deposited data

Results flagged for a closer look

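The actin 3′ to 5′ control probes were outside the comparisons, and on the highest array of each treated condition their log2 ratio exceeded that of every control array (2.78 to 3.05). This highest value was 3.97 in mannitol, 4.46 in pH, 7.22 in cold (replicate 3), 4.79 in NaCl (replicate 1) and 5.31 in ABA. Mannitol replicate 2 (2.85) lay within the control range, and cold replicate 2 (2.69) and NaCl replicate 2 (2.70) lay below it. Among the conditions that chose the members, every ABA and pH array had a higher ratio than every mannitol and control array. Its part in the results was not tested.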

How the results depend on the processing

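The limits and alternatives gave other counts as follows, and the cause was not tested except where a setting holds fewer arrays. The number of members, 49, became 31 (23 of the 49) with the offset and 42 to 60 when 1 array was left out, and 12 of the 49 passed whichever array was left out. The 23 members higher in cold became 0 on the deposited scales, 0 in the fit limited to cold, NaCl and control arrays and 8 to 25 when 1 array was left out, and the 1 that fell became 0 in that fit and 0 to 1. The highest of these counts in cold, 25, came without NaCl replicate 2 (7.56% of all probe sets). Under the replicate block, 19 members were higher in cold and 1 lower, and the block changed no count by more than 1.5 times. Where a count here or below has no share of all probe sets beside it, its change cannot be told from a change in calls everywhere. The 1 member higher in NaCl became 0 under median centring, on the deposited scales, in fits to the 2 groups or the 3 groups and by SAM, 4 at unadjusted p, and 0 to 3 when 1 array was left out, and the 0 lower became 1 at unadjusted p and 0 to 2. The 0 members higher in cold than NaCl became 1 with the offset, 21 at unadjusted p (6.65% of all probe sets) and 0 to 22 when 1 array was left out (22 without NaCl replicate 2), and the 0 lower became 1 under trimmed-mean scaling, 2 at unadjusted p and 0 to 3. The median change in cold was 0.83 with the offset and 0.95 to 1.29 when 1 array was left out. That in NaCl was -0.53 on the deposited scales and -0.08 to 0.60 when 1 array was left out, below 0 without NaCl replicate 2.

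Fits added after the data were seen gave, for the control, cold and NaCl arrays without NaCl replicate 2, 17 members higher in cold (3.62% of all probe sets), 0 higher in NaCl (0.0541%), and 17 higher and 2 lower in cold than in NaCl (3.75% and 3.18%). Without NaCl replicate 1 the same fit gave 0 higher and 0 lower in cold and 0 higher in NaCl. With NaCl replicate 2 and cold replicate 3 both left out, 21 were higher in cold (5.97% of all probe sets), 5 higher and 2 lower in NaCl (3.05% and 2.69%), and 21 higher and 2 lower in cold than in NaCl (8.5% and 9.06%). The 13 calls in cold or NaCl of single members described above, most of them without a gene name, were recomputed under 31 alternatives each. Of the 403 values 333 kept the call, 70 no longer passed the fold or adjusted p limit and 0 changed direction.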
